A study of Mus musculus with 12 samples.

Results

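ATAC-seq peaks of CD4 T cells from mouse bone marrow and culture merged into 76882 consensus regions, and 941 of these were open in every conventional library and in no regulatory library. Merging joined peaks of the 12 deposited lists that shared at least 1 bp. The 941 regions were chosen by the presence of a peak in all 4 lists of conventional T cells and the absence of one from all 8 lists of regulatory T cells, so presence itself is a description and was not tested. They made up 1.22% of all consensus regions. They are called conventional-only regions here.

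T cells carrying 6.5TCR, a transgenic receptor specific for the influenza hemagglutinin (HA), were moved into Aire-HA hosts, in which HA is expressed under control of Aire, and bone marrow subsets were sorted 14 days later. All libraries are labelled Balb/c, and each of the 6 groups had 2 libraries. Donor Tconv were transferred 6.5TCR cells that had not converted (CD45.1- CD45.2+ CD3+ CD4+ CD25-), and donor Treg were those that had, taken by CD25 and by LAP, the latent TGF-beta peptide. Host Tconv were the recipient's own conventional cells, labelled wild type and sorted as CD45.1+ CD45.2- CD3+ CD4+ CD25-. Host pTreg and host tTreg were recipient cells positive for CD45.1, CD45.2, CD25 and CTLA4, without Nrp1 in pTreg and with it in tTreg. The iTreg group was induced in vitro from wild-type cells and sorted as CD3+ CD4+ CD25+ LAP+. The labels do not say whether the libraries of a group came from separate animals. Replicates are numbered as in the titles; the descriptions number those of donor Treg and host Tconv 2 and 3.

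ATAC-seq maps open chromatin: a transposase cuts DNA where nucleosomes are displaced, and a pile-up of cuts is called as a peak. In T cells most promoters are open in many states, while distal elements inside introns and between genes differ more between states. Regulatory T cells (Treg) restrain immune responses under the transcription factor Foxp3, and conventional CD4 T cells (Tconv) keep naive and helper programmes, with factors of the TCF/LEF, ETS, RUNX and AP-1 families acting at many of their elements. A list without a peak does not show closed chromatin, since the read depth behind each list is unknown and the lists are named as intersections without the sources saying of what, and in bulk samples fewer cells with an open site cannot be told apart from less access in each cell.

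The promoter sequences are shown because they are the promoters that conventional-only regions reached, and all 4 belong to long noncoding RNAs. Of 32851 promoter windows (250 bases before to 50 after a start, RefSeq, GRCm38.p6, the assembly behind mm10), no window of a protein-coding gene was touched by a conventional-only region. Over all consensus regions 12.5% touched such a window, and 3.27% of other regions with a peak in exactly 4 lists did. These windows cover 17491 of 21883 coding genes. Each of the 4 windows is written 5′ to 3′ on the strand of its gene, with the bases under the conventional-only region in capitals. Gm46730 lies at chr2:6256588-6256887 on the plus strand, A430090L17Rik at chr13:114151543-114151842 on the minus strand, Gm35966 at chr14:75525723-75526022 on the minus strand and Gm32932 at chr19:57521978-57522277 on the plus strand.
Gm46730: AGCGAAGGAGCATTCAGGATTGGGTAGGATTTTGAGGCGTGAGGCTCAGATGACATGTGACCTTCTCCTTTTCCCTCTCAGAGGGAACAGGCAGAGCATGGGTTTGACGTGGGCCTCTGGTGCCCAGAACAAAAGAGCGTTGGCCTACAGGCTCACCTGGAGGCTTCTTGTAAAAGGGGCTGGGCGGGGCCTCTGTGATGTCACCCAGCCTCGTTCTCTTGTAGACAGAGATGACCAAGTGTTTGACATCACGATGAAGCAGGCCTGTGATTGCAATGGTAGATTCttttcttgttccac
A430090L17Rik: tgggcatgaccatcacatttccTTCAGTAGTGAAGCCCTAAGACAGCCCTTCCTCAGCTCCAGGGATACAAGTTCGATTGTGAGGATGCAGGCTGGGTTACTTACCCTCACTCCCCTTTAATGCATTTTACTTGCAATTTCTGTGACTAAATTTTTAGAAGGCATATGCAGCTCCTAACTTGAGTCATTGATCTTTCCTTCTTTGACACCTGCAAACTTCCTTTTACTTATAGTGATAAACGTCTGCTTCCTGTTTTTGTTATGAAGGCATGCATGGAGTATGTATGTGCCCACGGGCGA
Gm35966: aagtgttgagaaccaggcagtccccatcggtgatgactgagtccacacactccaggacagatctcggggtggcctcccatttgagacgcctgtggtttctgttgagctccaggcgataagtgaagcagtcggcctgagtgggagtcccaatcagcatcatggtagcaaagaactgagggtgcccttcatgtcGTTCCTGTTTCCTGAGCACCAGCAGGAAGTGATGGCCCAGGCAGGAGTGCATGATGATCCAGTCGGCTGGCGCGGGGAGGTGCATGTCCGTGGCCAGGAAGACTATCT
Gm32932: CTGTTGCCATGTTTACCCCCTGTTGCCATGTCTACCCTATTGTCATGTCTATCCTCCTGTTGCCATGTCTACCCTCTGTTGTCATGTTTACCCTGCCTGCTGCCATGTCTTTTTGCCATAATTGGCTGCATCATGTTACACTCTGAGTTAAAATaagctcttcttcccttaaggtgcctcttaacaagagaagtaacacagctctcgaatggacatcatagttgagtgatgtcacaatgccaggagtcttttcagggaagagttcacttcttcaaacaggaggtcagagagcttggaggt
The regions covered 286 bases of the Gm46730 window, 278 of A430090L17Rik, 154 of Gm32932 and 108 of Gm35966.

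The widest of the 4 regions at these promoters was that of A430090L17Rik, inside the body of Arl15, where the peak was 972 and 959 bp wide in the donor Tconv and 559 and 822 bp in the host Tconv libraries. Throughout, 4 widths in a row give donor Tconv replicates 1 and 2, then host Tconv replicates 1 and 2. At Gm46730 the peak measured 720, 560, 199 and 545 bp, so 1 host library was far narrower than the others. The peak at Gm32932 was 428, 313, 419 and 429 bp wide, and that at Gm35966 was 397, 193, 187 and 350 bp. All 4 windows are printed whole, and the motif search covered them on both strands. The TCF/LEF core CTTTGA, the ETS motif AGGAAGT and the AP-1 motif TGANTCA were all found in the A430090L17Rik window. AGGAAGT also stood in the Gm35966 window with the RUNX motif TGTGGT. The Gm32932 window held the FOX motif TGTTTAC and the STAT motif TTCNNNGAA, and the Gm46730 window held the KLF/SP motif GGGCGGG. The TGTGGT and TTCNNNGAA matches lay outside the bases under the regions, in lower case, and the others had a match within the capitals. Over all promoter windows the shares with a match were 16% for CTTTGA, 9.35% for AGGAAGT, 7.81% for TGANTCA, 16.8% for TGTGGT, 3.65% for TGTTTAC, 8.3% for TTCNNNGAA and 25.6% for GGGCGGG. None of the 4 windows held the NF-kB motif GGGANTTCC (1.68% of all windows), the GATA motif AGATAA (11.2%), the E box CAGCTG (16.3%) or the CTCF motif AGGGGGC (10.6%). A match is a run of letters and not a measured binding site, and the motifs can overlap one another.

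The lists behind the rule held 47193 and 44350 peaks in donor Tconv, 37050 and 44465 in host Tconv, 28394 to 37934 in the 6 in vivo regulatory libraries and 58357 and 63207 in iTreg. Library names carry the run code BW13 for donor Tconv, donor Treg and host Tconv and DR31 for the host regulatory groups. Numbers in these names ran from 42000 to 50000 in the conventional and iTreg libraries and up to 17000 in the in vivo regulatory ones, so the conventional and in vivo regulatory states cannot be told apart from that number, nor the host regulatory groups from their run. Donor Treg share the run code of the conventional libraries, and iTreg, without a run code, share their range of numbers. Within the BW13 libraries, where donor Treg is the only regulatory group, 5486 regions fulfilled the rule. Of 9 CD4 T cell marker genes, 8 could be looked up (Trac was not matched), and all 8 had a region open in all 12 lists. So had 4 of 5 erythroid, 3 of 8 myeloid, 3 of 8 B cell and 3 of 5 stem and progenitor genes, and 0 of 2 CD8 genes. Such regions therefore do not by themselves identify the labelled cell type.

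Conventional-only regions were a small part of what the conventional lists shared. Of the 33638 regions open in all 4 conventional lists, 21435 (63.7%) were open in all 12 lists and 941 (2.8%) in no regulatory list. Just outside the rule lay 544 regions with a single regulatory list; that list was iTreg replicate 2 in 268, iTreg replicate 1 in 90, host pTreg replicate 1 in 76, donor Treg replicate 2 in 56 and donor Treg replicate 1 in 21. The remaining near misses belonged to host pTreg replicate 2 with 13 and to host tTreg with 4 and 16. On the other side, 803 regions had 3 conventional lists and no regulatory list, and host Tconv replicate 1, the conventional list with the fewest peaks, was the missing list in 579 of them. Another 2471 regions (3.21%) were open in all conventional and both iTreg lists and in no in vivo regulatory list. The opposite pattern, open in all 8 regulatory lists and in no conventional list, was found in 263 regions (0.342%).

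The conventional-only regions were narrow. Their median width was 430 bp (quartiles 348 and 578, range 200 to 8537 bp), against 461 bp over all consensus regions and 1182 bp for regions open in all 12 lists. The other 3025 regions with exactly 4 lists had a median of 370 bp, but they join peaks of other libraries. Only 26 conventional-only regions (2.76%) reached 1 kb, against 21.1% of all consensus regions.

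Within each conventional library the peak at these regions was narrower than at regions it shared with regulatory lists, most of which were open in all 12. In donor Tconv the median was 368 and 328 bp, against 727 and 666 bp at regions shared by all conventional and at least 1 regulatory list and 493 and 482 bp over all peaks. In host Tconv it was 253 and 392 bp, against 517 and 723 bp at shared regions and 452 and 520 bp over all peaks. Regions open in few regulatory lists were about as narrow: the median of the conventional width was 341.5 bp with no regulatory list and 356.5, 361, 367.5 and 358 bp with 1, 2, 3 and 4. Host Tconv replicate 1 stood apart, with 155 of its 941 peaks (16.5%) at 150 bp, the narrowest width in any list, while the others had 19, 59 and 19 such peaks. The 4 conventional peaks overlay each other at most regions: in 937 of 941 they shared at least 1 base, with a median shared length of 231 bp (55.7% of the region). Peak width grows with signal, so width here is not independent of the presence that chose the regions.

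**Figure D1:**
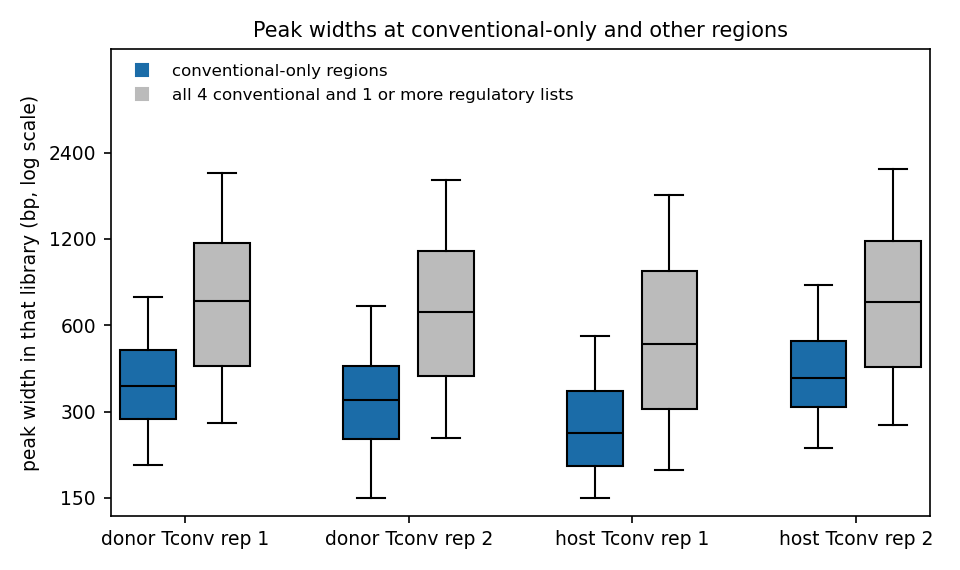
Width of each library's own peak (y axis, bp, log scale) at the 941 conventional-only regions (blue) and at regions open in all 4 conventional and 1 or more regulatory lists (grey), for the 4 conventional libraries; boxes are quartiles with the median, whiskers run from the 5th to the 95th percentile. The blue median lies below the grey one in each library, from 253 against 517 bp in host Tconv replicate 1 to 392 against 723 bp in host Tconv replicate 2.

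The share of regions without a regulatory peak fell with width. Where the median conventional peak was under 250 bp, 174 of 1623 regions open in all 4 conventional lists were conventional-only (10.7%). From 250 to 500 bp the share was 5.41% (598 of 11053), and from 500 to 1000 bp it was 1.43% (159 of 11129). At 1 kb or wider, 10 of 9833 regions (0.102%) had no peak in any regulatory list. Wide peaks without a regulatory counterpart were thus the rarest of these classes.

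Among the 10 widest, Bcl11b (chr12:107995532-107997540) lay inside the gene for a zinc-finger factor that T cell commitment requires, 7.61 kb from the nearer gene end. Its peak was 1743 and 1935 bp wide in donor Tconv and 1388 and 2009 bp in host Tconv. All 4 libraries thus had a broad peak where none of the 8 regulatory lists had one, while 12 of the gene's 20 regions were open in all 12 lists.

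A region 10.5 kb from Cxcr4, the receptor for the chemokine that retains cells in bone marrow, reached chr1:128602121-128603413. Peak widths there were 1253, 1219, 1109 and 1247 bp, close to one another in all 4 libraries. A neighbouring region at chr1:128601071-128601790 gave Cxcr4 a second conventional-only element, of 433, 433, 387 and 720 bp. At Ikzf1, which encodes the lymphoid factor Ikaros, the region chr11:11715977-11717095 lay in the gene body with widths of 1107, 1109, 987 and 1113 bp.

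Others of the 10 were less even between libraries. Rcsd1 (1200, 1165, 1033 and 1276 bp) was even, but Clec16a (1266, 1191, 631 and 1144 bp), Elf4, an ETS family factor linked to T cell quiescence (1175, 979, 485 and 1256 bp), Sidt1 (1050, 1066, 387 and 1317 bp) and Mgme1, a mitochondrial DNA nuclease (1350, 664, 492 and 1439 bp), were narrowest in host Tconv replicate 1. The same held for the widest region in Khdrbs3 (1268, 993, 450 and 1182 bp). The widest region of all, 8537 bp at Sfi1, is uncertain: its peaks were 8494, 8508, 8493 and 8465 bp, and Sfi1 is known for near-identical copies to which reads may map more than once.

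Conventional-only regions lay away from gene ends. The median distance from a region's middle to the closest end of any protein-coding gene was 23150 bp, against 13292 bp over all consensus regions and 16853 bp for other regions with exactly 4 lists. Within 1 kb of a gene end lay 26 of them (2.76%), against 16.6% of all regions, 7.01% of the other regions with 4 lists and 40.2% of regions open everywhere. Beyond 100 kb lay 115 (12.2%), against 8.96% of all regions, 10.2% of the other regions with 4 lists, 11.2% of those open in the conventional and iTreg lists alone and 12.9% of regulatory-only regions. Regions open in the conventional and iTreg lists alone lay at 4.94% within 1 kb, with a median distance of 20724 bp. For regulatory-only regions these values were 4.18% and 17531 bp. No test was run on these shares, and the gene table gives no exons, so introns and exons are not told apart.

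**Figure D2:**
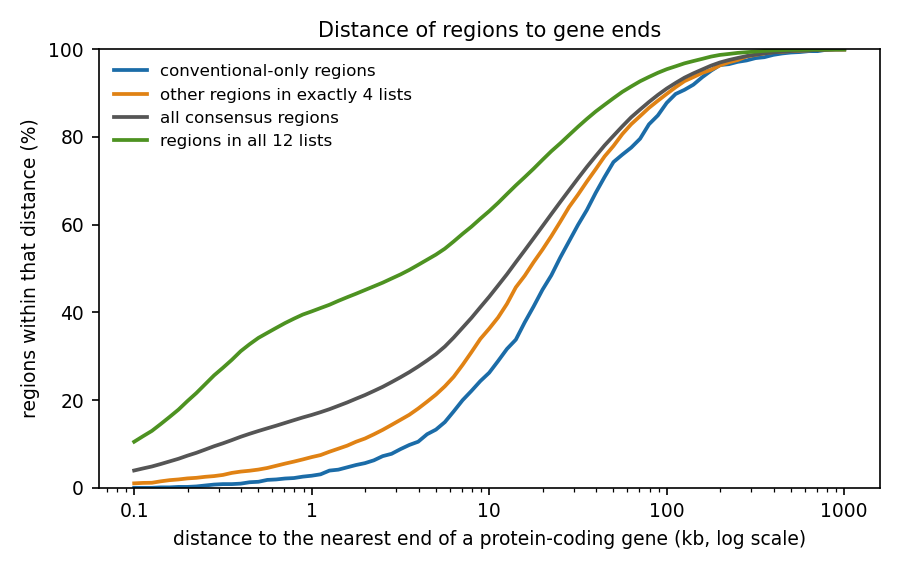
Share of regions (y axis, %) whose middle lies within a given distance of the closest end of any protein-coding gene (x axis, kb, log scale), for the 941 conventional-only regions, the 3025 other regions with exactly 4 lists, all 76882 consensus regions and the 21435 open in all 12 lists. At 1 kb the curves stand at 2.76%, 7.01%, 16.6% and 40.2%.

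Inside genes, 605 conventional-only regions (64.3%) lay in the body of a protein-coding gene, against 59.8% of all regions, 65.4% of those open in all conventional and some regulatory lists and 68.1% of those open in all 12 lists. The genes that held them had a median length of 96361 bp, against 71694 bp over all regions and 99602 bp for regions open in the conventional and iTreg lists alone. For 495 of them the strand of the gene was known. In 4 equal parts of the gene from its 5′ to its 3′ end lay 23.6%, 30.1%, 23.4% and 22.8%, a nearly even spread, whereas over all regions the shares were 38.6%, 21.6%, 20% and 19.8%, with the largest at the 5′ end. The other regions with exactly 4 lists were also nearly even, at 26.2%, 25.4%, 23.4% and 25.1%.

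Only 4 conventional-only regions covered an end of a protein-coding gene. Spata48 (830, 710, 390 and 826 bp), Cstf1, a subunit of the factor that directs cleavage of pre-mRNA 3′ ends (584, 770, 310 and 736 bp), and Peli1, a ubiquitin ligase that restrains T cell activation (699, 477, 314 and 782 bp), were covered at their 3′ ends. At Twf2, an actin-binding twinfilin (663, 754, 594 and 1014 bp), the strand was not known. Host Tconv replicate 1 had the narrowest peak at each of them.

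Other peaks lay closer to conventional-only regions than to comparable regions, in every list. The median distance to the next other peak of the same list was 4177 and 4518 bp in donor Tconv, 5167 and 4184 bp in host Tconv, 4390 and 4045 bp in iTreg, and 6657 to 10075 bp in the 6 in vivo regulatory lists. Around the other regions with exactly 4 lists it was 7062 and 7601 bp in donor Tconv, 9786 and 7397 bp in host Tconv, 5800 and 5262 bp in iTreg, and 9445 to 13715 bp in the in vivo regulatory lists. The in vivo regulatory lists thus had longer distances than their conventional counterparts around conventional-only regions, with no overlap, and most of them hold fewer peaks. That was not particular to conventional-only regions. Around regions open in the conventional and iTreg lists alone, distances were 6189 to 8140 bp in the conventional and 11020 to 16286 bp in the in vivo regulatory lists.

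Conventional-only regions also lay side by side. Of their 1882 nearest neighbours in genome order, 74 (3.93%) were conventional-only themselves, where 1.22% of all regions are and 1.01% of the neighbours of other regions with exactly 4 lists were. Another 111 neighbours (5.9%) were open in the conventional and iTreg lists alone, against 3.21% of all regions. Regulatory-only regions were neighbours in 6 cases (0.319%, against 0.342% of all regions). Lying beside their own kind was not particular to conventional-only regions. Of the 4942 neighbours of regions open in the conventional and iTreg lists alone, 356 (7.2%) were of that kind, against 3.21% of all regions. For the other regions with exactly 4 lists the share was 4.2%, against 3.94%. Chained at 50 kb, the 941 regions formed 744 singles, 84 pairs, 8 groups of 3 and 1 group of 5.

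The group of 5 lay in Khdrbs3 on chromosome 15, which encodes an RNA-binding protein of the STAR family that acts in splicing. With a sixth region further along, it was the gene with the most conventional-only regions, 6 of its 19. Peaks were present at 14 and 16 of the 19 in donor Tconv, 12 and 15 in host Tconv and 10 and 10 in iTreg, but at 1 and 1 in donor Treg, 1 and 0 in host pTreg and 0 and 0 in host tTreg. No region of the gene was open in all 12 lists, and 4 were open in the conventional and iTreg lists alone. The 6 chosen regions count in every conventional list and in no regulatory list by the rule. Without them, neither iTreg list fell below a conventional list, while every in vivo regulatory list still had fewer than each conventional list. Of the 17 regions within the 173 kb gene body, the in vivo regulatory lists had peaks at 0 or 1 and iTreg at 8 and 8. Over all 76882 regions, the conventional lists had peaks at 35684 to 46441, iTreg at 57487 and 62670 and the in vivo regulatory lists at 26980 to 36755.

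The 6 Khdrbs3 regions ran from 15.8 to 69 kb from the nearest gene end. The first, chr15:68943977-68944425, had peaks of 432, 398, 311 and 400 bp, and the next, chr15:68959106-68959824, had 662, 583, 573 and 719 bp. Both were of like width in all 4 libraries. The fourth, chr15:68965107-68965722, had 583, 558, 458 and 579 bp and lay close beyond the widest. The fifth, chr15:68977944-68978379, had 405, 368, 221 and 399 bp, and the last, chr15:69032617-69032974, had 280, 225, 150 and 225 bp, the narrowest of the 6.

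**Figure D3:**
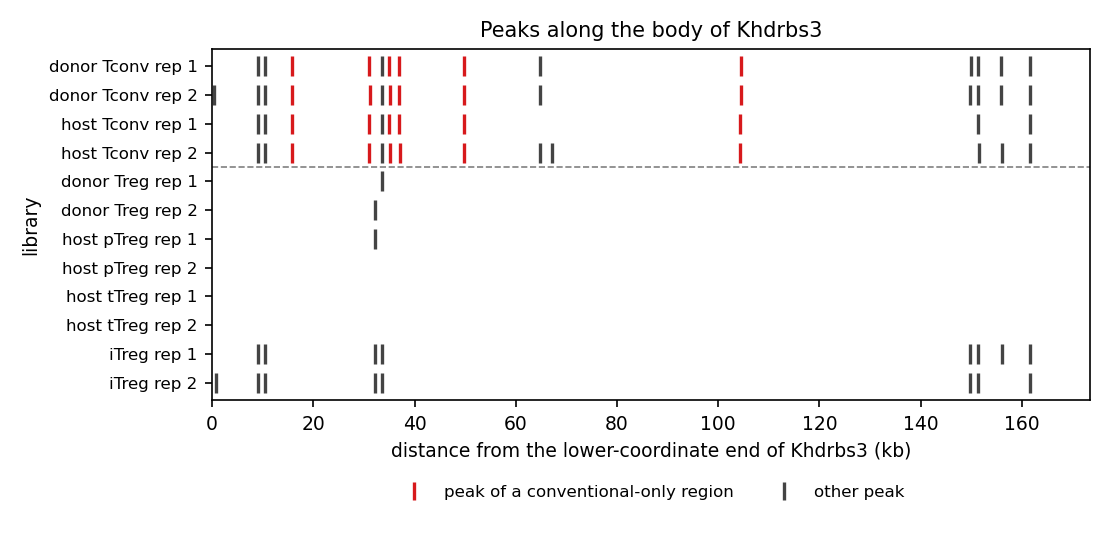
Peaks of each of the 12 libraries (rows) along the 173 kb body of Khdrbs3 (x axis, kb from its lower-coordinate end); each mark stands at the middle of a peak, red for the 6 conventional-only regions and dark grey for other peaks, and the dashed line parts conventional from regulatory libraries. The 3 bottommost in vivo regulatory rows hold no mark, and iTreg has marks at both ends of the gene.

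A second concentration was noticed after the values were seen: the 769 kb between Satb1 and Kcnh8 on chromosome 17. Satb1, a chromatin organiser of developing T cells, has its 5′ end facing this stretch, and Kcnh8 encodes a potassium channel. Of 75 regions there, 13 were conventional-only (17.3%), 9 were open in all 12 lists, 4 in the conventional and iTreg lists alone and 1 in the regulatory lists alone. Donor Tconv had peaks at 57 and 54 of the 75 and host Tconv at 45 and 61, against 24 and 26 in donor Treg, 19 and 15 in host pTreg, 11 and 14 in host tTreg and 34 and 40 in iTreg. The conventional and regulatory lists did not overlap in this number, but the 13 count in every conventional and no regulatory list by choice. Without the 13, host Tconv replicate 1 fell below both iTreg lists. Over all 76882 regions, the conventional lists had peaks at 35684 to 46441 and iTreg at 57487 and 62670. The in vivo regulatory lists had them at 26980 to 36755.

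The 13 regions began 66 to 726 kb from Satb1 and were 333 to 825 bp wide, and 3 groups of 3 were among them. The region nearest to Satb1, chr17:51899274-51900098, was also the widest, with peaks of 752, 589, 548 and 741 bp. At chr17:52448540-52449192 the peaks were of nearly one width, 646, 597, 579 and 647 bp. The group next to Kcnh8, from chr17:52525855 to 52559765, held only conventional-only regions, and its last, with 199, 150, 150 and 333 bp, was at the minimum width in 2 libraries. In windows of 500 kb laid over the genome, 696 of 3766 windows with a region held a conventional-only region, 44 held 3 or more, and the highest number in any window was 9, with 5 in the next.

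**Figure D4:**
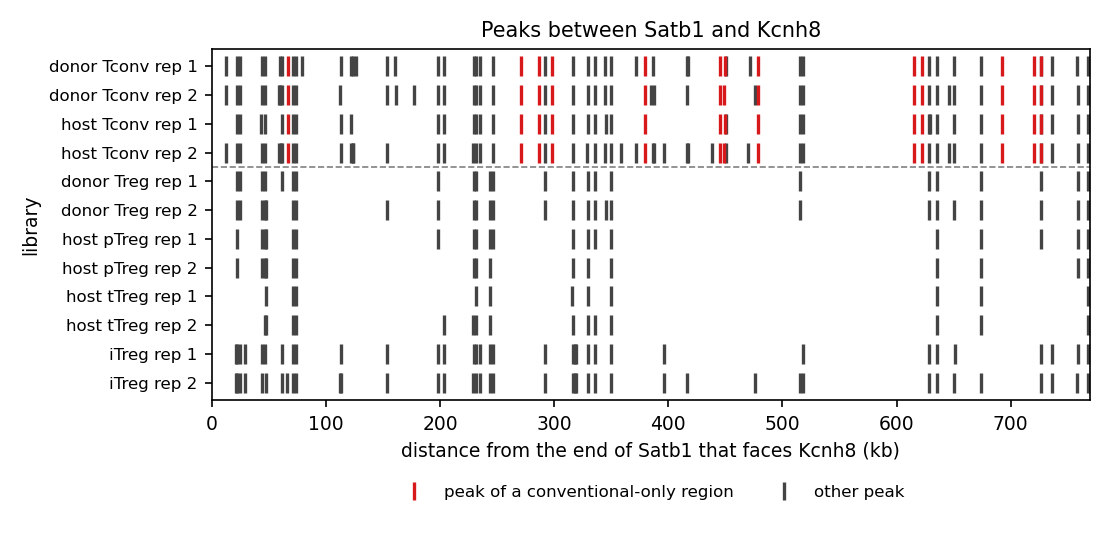
Peaks of each of the 12 libraries (rows) over the 769 kb between Satb1 and Kcnh8 (x axis, kb from the end of Satb1 that faces Kcnh8); each mark stands at the middle of a peak, red for the 13 conventional-only regions and dark grey for other peaks, and the dashed line parts conventional from regulatory libraries. The host tTreg rows are the sparsest, with peaks at 11 and 14 of the 75 regions.

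Smaller groups lay in Gab3, Pcca and Akap13 and in gene-poor sequence. Gab3, on chromosome X, encodes an adaptor that links cytokine receptors to their signalling partners, and 3 of its 7 regions were conventional-only. Its 7 regions had peaks at 6 and 5 in donor Tconv, 4 and 5 in host Tconv, 1 and 2 in host tTreg and 1 in each of the other 6 regulatory lists, iTreg included. The 3 chosen regions count in every conventional list and in no regulatory list by the rule, and without them the groups overlapped. Unlike at Khdrbs3, the iTreg lists were as empty as the other regulatory lists. Peaks at its 3 regions were 357, 346, 188 and 640 bp, 423, 273, 266 and 393 bp, and 262, 314, 206 and 308 bp.

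Pcca, a subunit of the mitochondrial enzyme that carboxylates propionyl-CoA, had 3 of 16, all within 12.4 kb at chr14:122784457-122796861 with no other region between them. Their peaks were uneven, for example 264, 600, 193 and 787 bp in the middle one. Akap13, an anchor of protein kinase A, had 3 of 64. In the 43.3 kb from chr15:49899827 to 49943155, 712 kb from Trps1 and 1107 kb from Csmd3, all 3 regions were conventional-only, with peaks of 150 to 416 bp that were narrowest in host Tconv replicate 1. In the 72.1 kb from chr10:118952738 to 119024827, between Dyrk2 and Cand1, 3 of 12 regions were conventional-only. This span began 63.5 kb from Dyrk2, and a further conventional-only region at chr10:118893619-118894143 lay nearer to that gene.

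Gene by gene, 719 of 15866 genes with a region had a conventional-only region (4.53%). Of these, 625 had 1, 82 had 2 and 12 had 3 or more. Genes with one were region-rich, with a median of 9 regions against 3 over all genes with a region. After Khdrbs3, Gab3, Pcca and Akap13, the genes with 3 were Baz2b (3 of 23), Filip1l (3 of 23), Cox10, needed for heme A synthesis (3 of 26), the ETS family repressor Etv6 (3 of 32), Sipa1l1 (3 of 33), the survival factor Bcl2 (3 of 39), the Arf regulator Asap1 (3 of 42) and Foxp1 (3 of 85).

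Cox10 was among the most uneven, with peaks at 21 and 22 of 26 regions in donor Tconv and 18 and 23 in host Tconv, against 7 and 7 in donor Treg, 9 and 8 in host pTreg, 5 and 4 in host tTreg and 15 and 18 in iTreg. Here iTreg replicate 2 equalled host Tconv replicate 1. The 3 conventional-only regions of Cox10 count in every conventional and no regulatory list by the rule. Without them, iTreg replicate 2 exceeded host Tconv replicate 1, and each in vivo regulatory list still had fewer than each conventional list. The genes with 2 conventional-only regions that had the fewest regions in all were Acadm, a fatty acid oxidation enzyme (2 of 5), the RNA methyltransferase Nsun6 (2 of 5), the kinase Camkk2 (2 of 6), Klhdc1 (2 of 6), Bod1l (2 of 7), Brdt (2 of 7), Kcnh8 (2 of 7) and the RNA-binding Ptbp3 (2 of 7). Brdt had 5 regions open in each conventional list, 1 in each in vivo regulatory list, and 4 and 5 in iTreg. Without its 2 conventional-only regions, both iTreg lists had more than any conventional list.

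**Figure D5:**
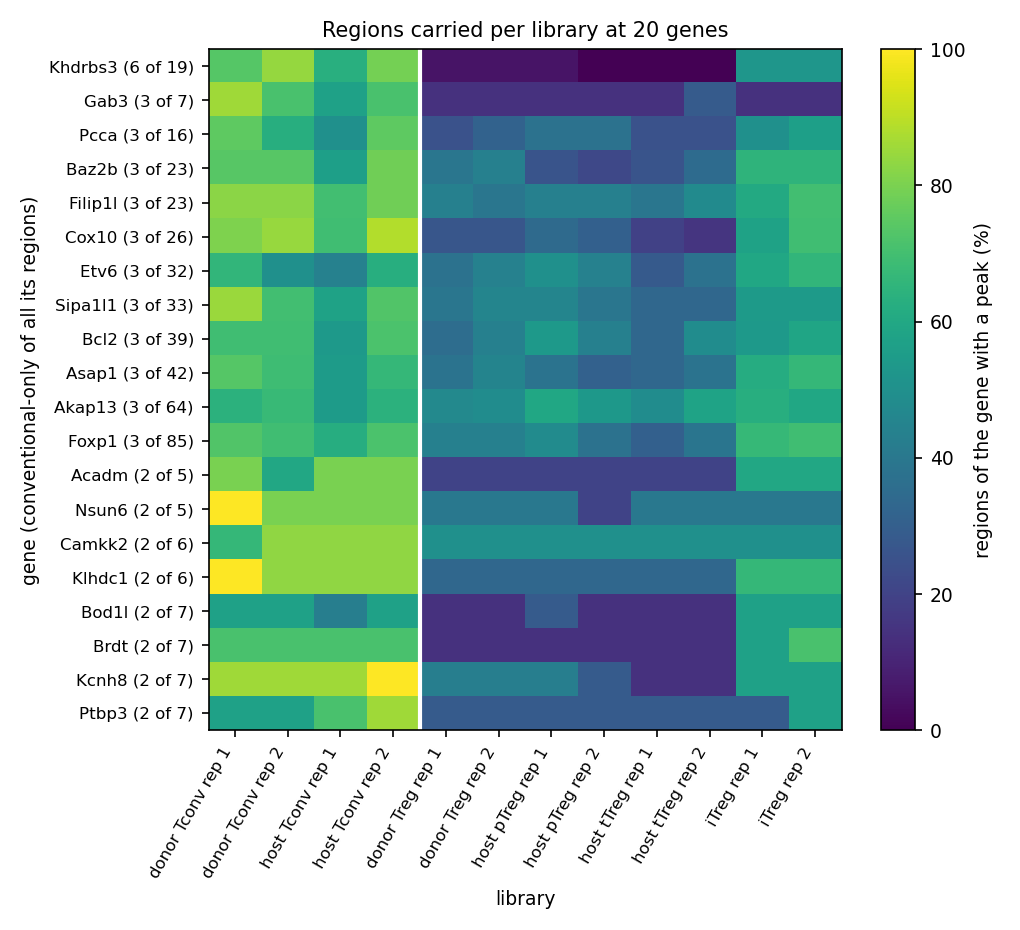
Share of each gene's regions that carried a peak (colour, 0 to 100%) in each of the 12 libraries (columns) at the 20 genes with the most conventional-only regions (rows; in brackets, conventional-only of all regions); the white line parts conventional from regulatory libraries. The genes were chosen by these regions, so higher shares to the left follow in part from the choice; at Khdrbs3 the in vivo regulatory columns hold 0 or 1 of 19 regions.

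Genes of T cell receptor signalling held 11 of the conventional-only regions, 3.99% of the list's 276 regions and at 9 of its 22 genes. Over all genes 1.22% of regions were conventional-only, and 4.53% of genes with a region had one. The list is rich in regions open in all 4 conventional lists, 166 of 276. Of these 166, 11 were conventional-only, against 2.8% of all such regions. Cd28, the main costimulatory receptor, had 2: in its body the peaks were 496, 452, 414 and 535 bp (chr1:60764964-60765519), and 40.2 kb from its end they were 428, 420, 357 and 507 bp (chr1:60813356-60813862). Plcg1, the phospholipase that turns receptor signals into calcium flux, had 2 within its body, of 658, 525, 476 and 592 bp and of 481, 397, 423 and 512 bp. These 4 regions had peaks of like width in all conventional libraries.

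Kinases of the same cascade followed. Prkcq, protein kinase C theta, had 1 of 31 regions, wide in all libraries at 1239, 961, 898 and 1037 bp (chr2:11216114-11217431). Txk, a Tec family kinase, had 1 (427, 388, 286 and 717 bp). The Src family kinases had narrower ones, 187, 228, 188 and 234 bp in Lck and 362, 277, 373 and 277 bp in Fyn. Themis, which tunes receptor signalling in thymocytes, had 1 (315, 354, 316 and 367 bp). The inhibitory coreceptor Cd5 had 1, of 500, 900, 475 and 468 bp, and 6 of its 9 regions were open in all 12 lists.

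Among naive and quiescence genes, 9 of 28 had a conventional-only region, 13 of 491 regions in all (2.65%). Foxp1, which keeps naive T cells quiescent, had 3, with peaks of 514, 458, 558 and 680 bp in the first, 291, 242, 283 and 276 bp in the second and 405, 382, 353 and 584 bp in the third. Bcl2 had 3 in its body, 2 of them close together at chr1:106561961-106562665 (618, 702, 233 and 670 bp) and chr1:106565643-106566447 (769, 648, 593 and 792 bp). The third, chr1:106639920-106640364, measured 360, 269, 323 and 445 bp. Lef1, the TCF/LEF factor that acts beside Tcf7 in naive T cells, had 1 of 25, with peaks of 672, 434, 473 and 801 bp at chr3:131137954-131138755.

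Bach2, a repressor that restrains effector differentiation, had 1 of 59 (462, 440, 319 and 566 bp), although 17 of its regions were open in all 12 lists. Il6ra, the interleukin-6 receptor chain, had 1 of 14 (521, 417, 522 and 536 bp), and Btg1, an antiproliferative gene, 1 of 23 (611, 566, 545 and 868 bp). Dapl1 had 1 (503, 530, 431 and 630 bp), and the gut-homing receptor Ccr9 had 1 (349, 239, 188 and 353 bp). With Bcl11b these were the 9 genes. Satb1, Tcf7, Ccr7 and Il7r had none assigned, and the conventional-only region nearest to Satb1 lay beyond the 50 kb over which regions were assigned.

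Of 21 Treg core genes 4 had a conventional-only region, 4 of 227 regions (1.76%). Foxp3 itself had 1 of its 4 regions, inside the gene body at chrX:7587485-7587871, with narrow peaks of 298, 273, 247 and 387 bp. Ikzf2, which encodes Helios, had 1 of 34, and here the in vivo regulatory lists had more peaks in all: 14, 14, 6 and 12 regions in the conventional lists, 19 to 26 in the in vivo regulatory lists and 9 and 11 in iTreg. The Ikzf2 region lay 1.75 kb from the gene end at chr1:69688788-69689424 and measured 637, 574, 376 and 578 bp. Il2rb, a chain of the interleukin-2 receptor, had 1 of 6 (522, 511, 293 and 365 bp), and Tgfb1 had 1 of 4 that was at or near the minimum width (196, 150, 150 and 207 bp). CD25 and LAP, the product of Tgfb1, were used in the sorts.

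Helper lineage factors had 4 of 294 regions (1.36%), a share near the 1.22% of all regions, at 4 of 20 genes, and all 4 were narrow. Bcl6, the follicular helper factor, had peaks of 385, 374, 244 and 311 bp, and Runx1 had 276, 239, 194 and 242 bp. Zbtb16, the factor of innate-like T cells, had 274, 278, 150 and 290 bp, and Irf4, at the minimum width in 2 libraries, had 190, 150, 150 and 188 bp. Across the 21 regions of Zbtb16, the conventional lists had 10 to 13 peaks, host pTreg 10 and 8, iTreg 10 and 12, and donor Treg and host tTreg 1 in each list.

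Effector cytokine genes had 2 of 118 regions (1.69%), at 2 of 18 genes. The region assigned to Il21, a cytokine of follicular helper cells, lay 47.9 kb from the gene and measured 798, 848, 432 and 732 bp. Its 11 regions had 9, 8, 8 and 8 peaks in the conventional lists, 1 to 3 in the in vivo regulatory lists and 7 and 6 in iTreg. Il3 had 1 of 4 (342, 343, 229 and 415 bp), and no in vivo regulatory list had a peak at any of its 4 regions, while iTreg had 3 and 3 and the conventional lists 2, 2, 1 and 2.

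TGF-beta pathway genes had 3 of 199 (1.51%), at Smad7, the inhibitory Smad (2 regions), and the coreceptor Tgfbr3 (1), and activation factors had 3 of 200 (1.5%), at Bach1 (2) and the orphan nuclear receptor Nr4a3 (1). The Nr4a3 region was the widest of these and even between libraries, at 730, 690, 638 and 736 bp. Peaks at Tgfbr3 were 353, 355, 305 and 447 bp. Homing and retention genes had 5 of 158 (3.16%): 2 at Cxcr4 and 1 each at the integrin genes Itga4 (422, 325, 248 and 399 bp), Itgal (241, 281, 275 and 321 bp) and Itga6 (188, 198, 190 and 245 bp). Inhibitory receptor genes had 0 of 99 regions, and cytotoxic and natural killer genes had 0 of 70. Against the 1.22% of all consensus regions, the shares of the receptor signalling, homing and naive lists were the highest of the 10, and they are descriptions of lists whose genes differ in how many regions they have. Among regions open in all 4 conventional lists, conventional-only ones were 11 of 166, 5 of 85 and 13 of 280 in these lists, against 2.8% of all such regions.

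Markers of other cells also held conventional-only regions. Myeloid genes had 2 of 28 (7.14%), both at Spi1, a share above that of any of the 10 lists, against 1.22% of all regions. The Spi1 peaks were 524, 578, 304 and 459 bp wide at one region and 357, 292, 150 and 347 bp at the other. Of the 28 myeloid regions, 14 to 19 were open in the conventional lists, 7 to 10 in the in vivo regulatory lists and 19 and 20 in iTreg. The 2 at Spi1 count in every conventional and no regulatory list by the rule. Without them the conventional and in vivo regulatory ranges still did not overlap. Stem and progenitor genes had 1 of 33 (3.03%), at Flt3 (739, 342, 382 and 433 bp), with 10 to 15 regions open in the conventional and 6 to 25 in the regulatory lists. B cell genes had 0 of 28, open at 3 to 11 in the conventional and 5 to 21 in the regulatory lists. Erythroid genes had 0 of 8, with 6 open in each conventional list and 6 to 8 in the regulatory lists. The CD8 genes Cd8a and Cd8b1 had 0 of 12, but the conventional lists had peaks at 5 to 8 of the 12, the in vivo regulatory lists at 0 or 1, and iTreg at 7 and 6. The CD4 T cell genes had 4 of 59 (6.78%), at Cd28, Cd5 and Lck, with 48 to 53 regions open in the conventional and 36 to 44 in the regulatory lists. Without these 4, which the rule fixes, the lowest conventional list equalled the highest regulatory list. Over all 76882 regions, the conventional lists had peaks at 35684 to 46441, iTreg at 57487 and 62670 and the in vivo regulatory lists at 26980 to 36755. The part of myeloid and CD8 cells in the conventional-only regions was not tested.

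Some genes held regions of both kinds. A regulatory-only region was assigned to 20 of the 719 genes with a conventional-only region (2.78%). These 20 were 9.26% of the 216 genes with a regulatory-only region. Over all genes with a region, the share with a regulatory-only one was 1.36%. Genes with a conventional-only region also had more regions of any kind, at a median of 9 against 3 over all genes with a region. Ikzf2, Etv6, Asap1, Akap13, Itga4, Rcsd1 and Clec16a were among the 20, and so, outside the naming rule and picked after their values were seen, were Klf13, Traf1 and Trps1. At 7 genes every region was conventional-only, each with a single region.

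The list lengths limit how firmly absence can be read. When every list was cut to its 28394 widest peaks, the length of the shortest, 828 regions fulfilled the rule. Just 246 (26.1%) of the 941 described here were among them. The cut removes peaks and adds none, so a region remained wherever its 4 conventional peaks were wide enough. Remaining thus follows from width and does not show whether absence from the regulatory lists is firm. All 10 of the widest remained, as did both regions at Cd28, Plcg1 and Cxcr4, 4 of 6 at Khdrbs3, 2 of 3 at Foxp1 and those at Prkcq, Lef1, Bach2, Il21 and Ikzf2, whereas the regions at Foxp3, Lck, Fyn, Themis, Gab3, Pcca and the 4 helper lineage factors did not, and 5 of 13 remained between Satb1 and Kcnh8.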

How the data were processed

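ATAC-seq was measured in 12 libraries, 2 in each of 6 groups, with group and replicate number as the titles give them. The submitters' processing notes name the mm10 build, Bowtie2 2.3.3, HOMER 4.10 and bedtools. Their roles and settings, the transposase shift and the read depth are not given in the sources. All peaks have a deposited score of 1000, which was not used. Peak coordinates, given here from 1, are the measurement; no peak is narrower than 150 bp. The lists are named as intersections; what was intersected is unknown, and it bears on each peak's presence and width.

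Peaks sharing at least 1 bp across the 12 lists were merged with Python 3.11.15, numpy 2.4.6 and pandas 2.3.3, on code tested on simulated lists. Genes came from a RefSeq table of GRCm38.p6, which shares its coordinates with mm10. A region was assigned to the protein-coding gene holding its middle, else to the protein-coding gene that ended or began closest, up to 50 kb away. Promoter windows came from a RefSeq table that covers 17491 of 21883 coding genes; 1 chromosome of it was not used here. Strand was taken from it too. Motifs in the regions themselves were not searched. Some items are not reported here.

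Named are the 20 genes with the most conventional-only regions, list genes with at least 1, the genes of the 10 widest regions, those at gene ends and those of the 5 largest groups. The regions, the 10 gene lists, the 6 marker lists and the rule were chosen with earlier results of these data known. No test was run, because presence chose the regions. Alternatives were other merging distances, a minimum cover, a minimum width, lists of equal length, other distance limits, autosomes only, each library left out and, added after seeing the data, the BW13 libraries alone. Values of 4 libraries are in the order donor Tconv 1, donor Tconv 2, host Tconv 1, host Tconv 2.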

Additional observations from a re-analysis of the deposited data

How the results depend on the processing

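No paired analysis was possible because the results come from no test. Leaving out 1 library at a time gave 945 to 1520 conventional-only regions in place of 941; 1520 came without host Tconv replicate 1, the one library whose absence moved the number by over 1.5 times. The same settings gave a median width of 383 to 433 bp (430 bp with all), 60.7% to 64.9% inside a gene body (64.3%), 7.31% to 11% next to another conventional-only region (7.44%) and 12 to 45 genes with 3 or more (12). Counting a list only where its peaks covered 50% of a region gave a median of 496 bp, 10.2% next to another and 40 genes with 3 or more. Lists of equal length gave 607.5 bp, 12% and 20 genes, and leaving out peaks under 200 bp gave 479.5 bp. Within 2 kb of a gene end lay 5.63% and within 5 kb 13.3%, against 2.76% within 1 kb. The BW13 libraries alone gave 5486 regions, of which 5.01% lay within 1 kb of a gene end and 26.8% next to another, and 371 genes with 3 or more; this setting was added after seeing the data and has fewer regulatory lists. Settings not named moved no value beyond its interval or 1.5 times. With the read depth unknown, absence of a peak is the limit of every value here.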
